A study of Mus musculus with 9 samples.

Results

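A set of 10 genes for acetylcholine receptors and the enzyme that ends the acetylcholine signal was followed in RNA from hippocampal synaptoneurosomes of Fmr1 knockout mice. They are the muscarinic receptor genes Chrm1, Chrm2, Chrm3, Chrm4 and Chrm5, the nicotinic receptor subunit genes Chrna4, Chrna5, Chrna7 and Chrnb2, and the acetylcholinesterase gene Ache. They were chosen by name, as the rows of the deposited count table whose Ensembl identifier carries one of these symbols, and all 10 were found among its 22255 genes. All 10 passed the filter on low counts, which 14512 of the 22255 genes passed.

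Both groups were Fmr1 KO mice of the C57Bl/6J strain, so the knockout is shared and no wild-type sample was analysed here. The comparison was between 4 samples after AM6545 (replicates A, B, C and E) and 5 after vehicle (replicates A to E). AM6545 is a CB1 cannabinoid receptor antagonist that enters the brain poorly, and it was given sub-chronically, with dose, age and sex not given in the labels. The labels give each sample a letter but do not say that each came from a different animal, so the p-values measure the spread between these samples, which may in part be technical. A synaptoneurosome preparation enriches for resealed synaptic endings from homogenised tissue, and the values below are RNA levels in that fraction. In such bulk samples, fewer cells of a type and less RNA per cell cannot be told apart.

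Acetylcholine reaches the hippocampus mainly through axons of neurons in the medial septum and diagonal band. Muscarinic receptors couple to G proteins, with Chrm1, Chrm3 and Chrm5 acting through Gq and phospholipase C, and Chrm2 and Chrm4 through Gi/o. Nicotinic receptors are pentameric ion channels, either of Chrna7 alone or of combinations such as Chrna4 with Chrnb2, in which Chrna5 can join as an accessory subunit. Acetylcholinesterase splits acetylcholine in the synaptic cleft.

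The promoters of Ache and Chrna7 are shown because these genes had the highest level of all 10 and of the 4 nicotinic subunits per length of the longest transcript. The order depends on the length used, as given with the levels below. The sequences are RefSeq's, from assembly GRCm38.p6, and run from 250 bases before to 50 bases after the annotated gene start, 5′ to 3′ on the gene's strand. That of Ache lies at chr5:137288004-137288303 on the plus strand and that of Chrna7 at chr7:63212477-63212776 on the minus strand. Capitals mark the GC box, GGGCGG, searched on both strands.
Ache: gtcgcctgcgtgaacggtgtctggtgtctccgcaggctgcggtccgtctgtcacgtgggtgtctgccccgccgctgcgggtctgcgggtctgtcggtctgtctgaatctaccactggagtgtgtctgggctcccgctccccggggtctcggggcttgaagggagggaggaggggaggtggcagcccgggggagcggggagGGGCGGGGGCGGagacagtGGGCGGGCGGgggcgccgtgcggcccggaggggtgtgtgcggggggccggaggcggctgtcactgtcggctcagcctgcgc
Chrna7: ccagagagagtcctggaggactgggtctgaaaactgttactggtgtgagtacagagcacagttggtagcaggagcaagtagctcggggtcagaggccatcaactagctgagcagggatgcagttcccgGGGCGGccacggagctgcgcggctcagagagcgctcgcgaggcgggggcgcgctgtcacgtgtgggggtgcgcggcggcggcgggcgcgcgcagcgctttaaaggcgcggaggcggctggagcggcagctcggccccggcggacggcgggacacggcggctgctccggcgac
The Ache sequence held 4 GC boxes, some of them overlapping, with a GC content of 74.0%, and that of Chrna7 held 1, with a GC content of 70.0%. RefSeq promoters were matched for 9 of the 10 genes, all but Chrm1. A GC box was found in at least 1 promoter of 7 of these 9, and in none for Chrm3 and Chrm5. Among the 11274 tested genes with a listed promoter, 67.0% had one by the same rule. Counted by promoter, 7 of the 10 listed for these genes had one, since a second promoter of Chrna5 had none. That share was 60.0% of 14482 promoters of tested genes and 35.7% of all 32851 promoters of that length. The motif does not set these genes apart from the tested genes. A match describes letters in this window only.

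The libraries held 19295228 to 25001682 counts in the AM6545 group and 17628922 to 27263393 in the vehicle group. Mitochondrial genes took 4.30% to 6.73% of counts after AM6545 and 4.06% to 7.90% after vehicle. Fmr1 itself was counted at 9.44 to 13.3 CPM (counts over the TMM-adjusted size of each library) over the 9 samples. The labels do not name the Fmr1 allele or the deleted part, so these counts do not check the genotype. All 7 pyramidal cell markers and all 7 dentate granule cell markers listed for the hippocampus were above 1 CPM in every sample. Choroid plexus markers (7 genes) varied widely between samples, at a summed 63.9 to 943 CPM after AM6545 and 50.8 to 4373 CPM after vehicle.

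In the comparison of AM6545 with vehicle, the fitted level of each of the 10 genes was higher after AM6545, by a log2 fold change of 0.11 to 0.29 (median 0.23), and none passed the test. Of all 14512 genes 48.2% were higher, with a median log2 fold change of -0.01. By edgeR's quasi-likelihood test with Benjamini-Hochberg adjustment over all 14512 genes, 0 of the 10 reached an adjusted p of 0.05, as did 0% of all genes, and the adjusted p ran from 0.653 to 0.876. At an unadjusted p of 0.05, 0 of the 10 passed, against 7.21% of all genes. For 0 of the 10 did the ranges of the 2 groups stand apart, against 1.45% of all genes. The samples are the same for every gene, so the 10 differences are not independent of each other.

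**Figure D1:**
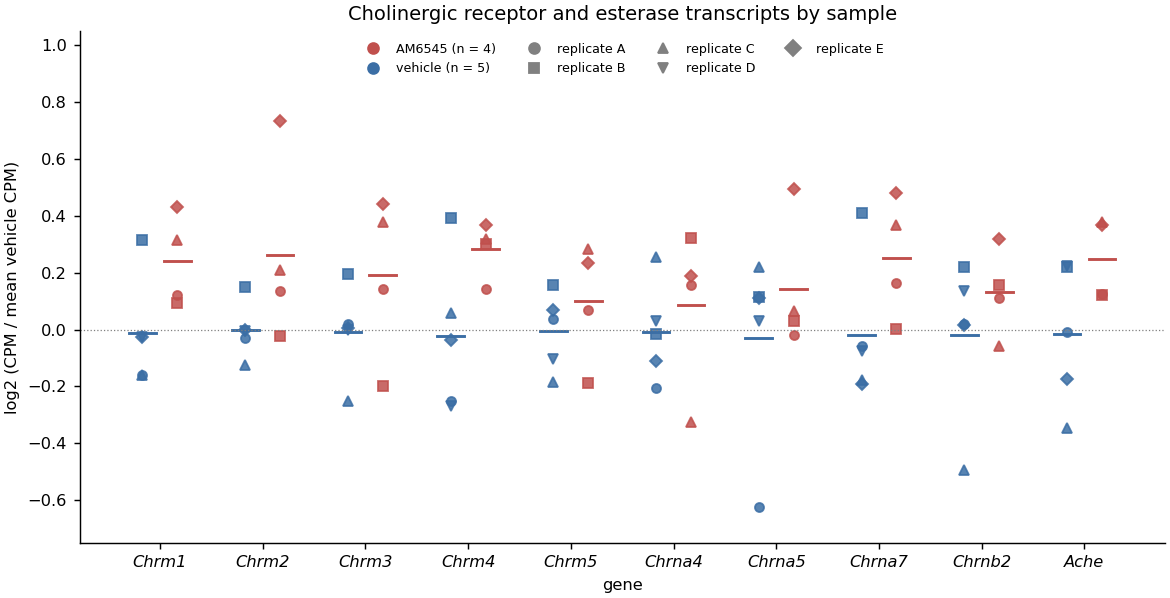
Level of each gene in each sample as log2 of its CPM over the vehicle group's mean CPM (vertical axis), with the genes along the horizontal axis. Red points are the 4 AM6545 samples, blue points the 5 vehicle samples, shapes the replicate letters and bars the mean of the log2 values. The groups overlap for every gene, and vehicle B and AM6545 E lie high for 7 genes each.

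Among the muscarinic receptors, Chrm1, the main subtype of forebrain pyramidal cells, was measured at 212, 208, 243 and 263 CPM in AM6545 A, B, C and E. In vehicle A to E it was at 175, 243, 174, 192 and 191 CPM. Every AM6545 sample lay above 4 of the 5 vehicle samples, and vehicle B lay among the AM6545 samples. The means were 231 ± 26.2 CPM (SD, n = 4) after AM6545 and 195 ± 28.1 CPM (SD, n = 5) after vehicle. The fitted change was 1.19-fold with a 95% interval of 0.997 to 1.41 (log2 fold change 0.25, SE 0.12, edgeR quasi-likelihood test with Benjamini-Hochberg adjustment, adjusted p = 0.653).

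Chrm3, a second receptor of the Gq class, was at 10.1, 8.0, 11.9 and 12.5 CPM in AM6545 A, B, C and E. The vehicle samples A to E held 9.30, 10.5, 7.72, 9.17 and 9.20 CPM. AM6545 B fell inside the vehicle range and AM6545 C and E above it. The log2 fold change was 0.21 with a 95% interval of -0.10 to 0.52. Chrm5, the receptor of the same class best known from midbrain dopamine neurons, was counted only 41 to 72 times a sample. Its levels were 2.48, 2.08, 2.87 and 2.78 CPM after AM6545 (A, B, C, E) and 2.43, 2.63, 2.08, 2.20 and 2.48 CPM after vehicle (A to E). AM6545 B had the lowest value of all 9 samples, just under vehicle C, and the log2 fold change of 0.11 had an interval of -0.28 to 0.50.

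Chrm2, a Gi/o-coupled receptor that sits on cholinergic terminals as an autoreceptor and on some interneurons, was at 7.18, 6.44, 7.55 and 10.9 CPM in AM6545 A, B, C and E. The vehicle values, A to E, were 6.41, 7.24, 5.99, 6.51 and 6.53 CPM. AM6545 E stood well above all other samples, and the other 3 AM6545 samples reached from within the vehicle range to just above it. Its log2 fold change, 0.29 (SE 0.16, 95% interval -0.04 to 0.63), was the largest of the 10 in the fit of all samples, and was 0.11 without AM6545 E. Chrm4, the other Gi/o-coupled receptor, was the most sparsely counted of the 10, with 17 to 42 counts a sample. It was at 1.29, 1.44, 1.46 and 1.51 CPM in AM6545 A, B, C and E, and at 0.982, 1.54, 1.22, 0.972 and 1.14 CPM in vehicle A to E. The 4 AM6545 samples lay above every vehicle sample other than B, which was the highest of the 9. The log2 fold change of Chrm4 was 0.28, with an interval of -0.22 to 0.77 that spans a lower as well as a 1.71-fold higher level.

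The muscarinic family was dominated by Chrm1 in both groups. Chrm1 took 91.1% ± 0.654 (SD, n = 4) of muscarinic counts after AM6545 and 91.0% ± 0.574 (SD, n = 5) after vehicle, and 90.1% to 92.0% over the 9 samples. Chrm3 took 4.16% ± 0.419 and 4.31% ± 0.332 in the same order, and Chrm2 3.13% ± 0.426 and 3.07% ± 0.208. For Chrm1, Chrm2 and Chrm3 the means differed by less than the SD of either group, as did those of Chrm4, at 0.565% ± 0.0511 and 0.546% ± 0.0671. The share of Chrm5 was 1.005% ± 0.0787 after AM6545 and 1.11% ± 0.103 after vehicle, a difference larger than the SD of either group, and it was not tested. These are shares of counts, which longer transcripts raise. The log2 ratio of Chrm1 to Chrm2 was 4.87 ± 0.196 after AM6545 (SD, n = 4) and 4.89 ± 0.109 after vehicle (SD, n = 5).

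Among the nicotinic subunits, Chrna7, which forms the fast, calcium-permeable homomeric receptor of hippocampal interneurons and terminals, was at 11.5, 10.3, 13.3 and 14.3 CPM in AM6545 A, B, C and E. In vehicle A to E it was at 9.88, 13.7, 9.09, 9.76 and 9.01 CPM. As with Chrm1, each AM6545 sample was above 4 of the 5 vehicle samples, and vehicle B was above all AM6545 samples but E. The means were 12.4 ± 1.80 CPM (SD, n = 4) and 10.3 ± 1.94 CPM (SD, n = 5), and the fitted change was 1.20-fold with a 95% interval of 0.964 to 1.49. Chrna5, the accessory subunit, was at 9.66, 9.99, 10.3 and 13.8 CPM in AM6545 A, B, C and E and at 6.35, 10.6, 11.4, 10.02 and 10.6 CPM in vehicle A to E. One high AM6545 sample, E, and one low vehicle sample, A, stood apart, and the rest of the 2 groups were interleaved. Its log2 fold change was 0.16 (interval -0.20 to 0.51), 0.02 without AM6545 E and 0.04 without vehicle A.

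Chrna4, the alpha subunit of the main high-affinity nicotinic receptor of the brain, was at 13.6, 15.2, 9.74 and 13.9 CPM in AM6545 A, B, C and E. The vehicle samples A to E held 10.6, 12.1, 14.6, 12.5 and 11.3 CPM. AM6545 C was the lowest of all 9 samples, and vehicle C was the highest vehicle sample, as it was for Chrna5. The log2 fold change of Chrna4 was 0.11 (interval -0.20 to 0.41), and it was 0.02 without AM6545 B and 0.22 without AM6545 C. Chrnb2, the usual partner of Chrna4, was at 13.3, 13.7, 11.8 and 15.3 CPM in AM6545 A, B, C and E. In vehicle A to E it was at 12.5, 14.3, 8.73, 13.5 and 12.4 CPM. Vehicle C was the lowest sample for Chrnb2 and high for Chrna4, and the log2 fold change of Chrnb2, 0.14 (interval -0.16 to 0.44), was 0.04 without it. In the GENCODE M21 annotation Chrnb2 overlaps the RNA-editing gene Adar on the opposite strand, over 7252 bases. In a search of both strands, transcripts of the 2 matched at 100% identity over 1014 bases, with the orientation of the match not recorded. The strand setting of the counting is not given in the sources used here, so reads of Chrnb2 and Adar may be mixed.

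Ache was at 87.7, 87.6, 104.6 and 103.9 CPM in AM6545 A, B, C and E. The vehicle samples A to E held 80.0, 93.7, 63.2, 93.9 and 71.3 CPM. AM6545 C and E lay above every vehicle sample, while AM6545 A and B lay above 3 of the 5. The means were 96.0 ± 9.59 CPM (SD, n = 4) and 80.4 ± 13.5 CPM (SD, n = 5). The fitted change was 1.19-fold with a 95% interval of 0.992 to 1.43 (log2 fold change 0.25, SE 0.12, edgeR quasi-likelihood test with Benjamini-Hochberg adjustment, adjusted p = 0.653).

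**Figure D2:**
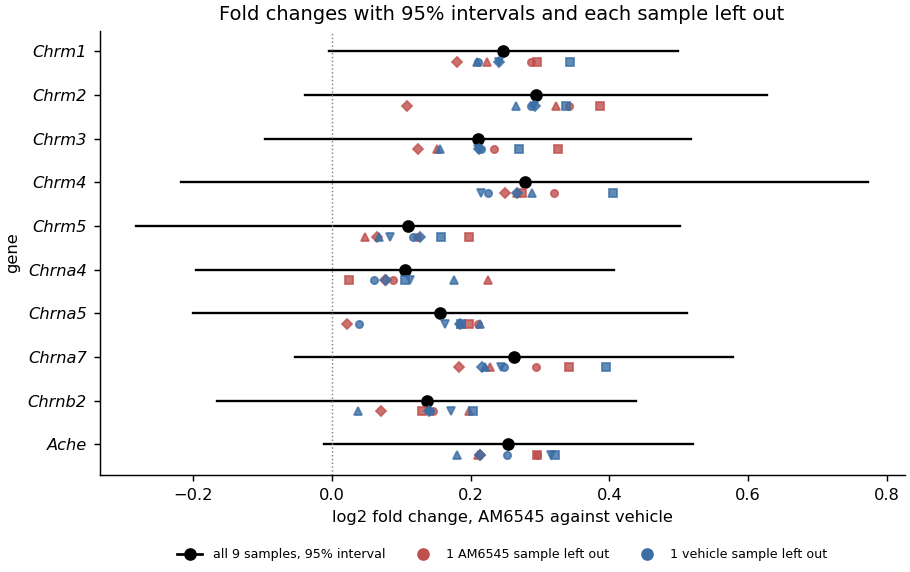
Log2 fold change of AM6545 against vehicle for each gene (horizontal axis) with the genes on the vertical axis. Black points and lines are the fit of all 9 samples with its 95% interval, and the smaller points below are fits with 1 AM6545 sample (red) or 1 vehicle sample (blue) left out, with shapes for the replicate letters as in the plot of levels by sample. All 95% intervals include 0, and the points with a sample left out all stay above 0, between 0.02 and 0.41.

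A few samples set the ends of the ranges for many of these genes at once. AM6545 E was the highest of its group for 7 of the 10 genes and AM6545 B the lowest for 6. Vehicle B was the highest of its group for 7 and vehicle C the lowest for 6. Vehicle B had the deepest library and vehicle A the shallowest. Whether depth or tissue makeup has a part in these extremes was not tested.

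Leaving out single samples moved the counts. Without vehicle B, 3 of the 10 genes, Chrm1, Chrna7 and Ache, were under an unadjusted p of 0.05, against 12.5% of all genes in that fit. Without it the group ranges of 3, Chrm1, Chrm4 and Chrna7, stood apart, against 6.06% of all genes. The log2 fold changes were then 0.34 for Chrm1, 0.40 for Chrna7 and 0.32 for Ache, and the smallest adjusted p of the 10 was 0.320 (edgeR quasi-likelihood test, Benjamini-Hochberg adjustment). Without AM6545 B, 5 of the 10 (Chrm1, Chrm2, Chrm3, Chrna7 and Ache) were under an unadjusted p of 0.05, against 4.38% of all genes, and the smallest adjusted p was 0.920. Without AM6545 E, 0 of the 10 were, against 12.6% of all genes, and the log2 fold change of Chrm1 was 0.18. Vehicle B and AM6545 B are the samples that lie against the direction of the fitted change for most of these genes, so the counts without them are a description and not a test.

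Markers of hippocampal principal cells mostly lay in the same direction as the receptor genes. The 7 pyramidal cell markers summed to 1010 to 1190 CPM after AM6545 and 956 to 1065 CPM after vehicle, and 6 of the 7 had a higher fitted level. Of the 7 dentate granule cell markers, 6 also had a higher fitted level, at a summed 364 to 389 CPM against 312 to 386 CPM. The 9 inhibitory interneuron markers summed to 774 to 904 CPM and 815 to 932 CPM in the same order. The choroid plexus and erythrocyte lists lay in the opposite direction. All 7 choroid plexus markers had a lower fitted level after AM6545, and so did all 5 tested erythrocyte markers. The 6 listed erythrocyte markers summed to 255 to 717 CPM against 290 to 1239 CPM. Other lists were mixed, with 4 of 6 microglia, 3 of 7 astrocyte, 3 of 7 oligodendrocyte and 4 of 9 interneuron markers higher. So were 3 of 6 cortical layer 6, 2 of 6 thalamus and 2 of 7 tested striatum markers. At an unadjusted p under 0.05 there were 2 choroid plexus markers, against 7.21% of all genes. The pyramidal, dentate, microglia and layer 6 lists each held 1. None of these markers reached an adjusted p of 0.05, and their part in the receptor values was not tested.

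Levels were compared between genes after division by the length of the longest protein-coding transcript. On this scale, CPM per kilobase, Ache (39.9 ± 6.36, SD, n = 9) and Chrm1 (33.7 ± 5.10) were the highest. Chrna7 (5.39 ± 0.996) was next, 6.24-fold below Chrm1, and this was the only step in the order at which the ranges of the 9 samples did not overlap. Below it came Chrna5 (4.21), Chrna4 (2.76), Chrm3 (2.27), Chrnb2 (2.01), Chrm5 (1.53), Chrm2 (1.27) and Chrm4 (0.891). Ache was above Chrm1 in 9 of 9 samples, but by coding length Chrm1 was the higher of the 2, at 153 against 47.4 CPM per kilobase. Which transcripts were present was not measured, so the order of Ache and Chrm1, and of the lower genes, depends on the length used. By median transcript length Chrna4 (9.73) and Chrna5 (5.49) were above Chrna7 (5.39). By each of the 3 lengths tried, Ache and Chrm1 were the 2 highest.

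**Figure D3:**
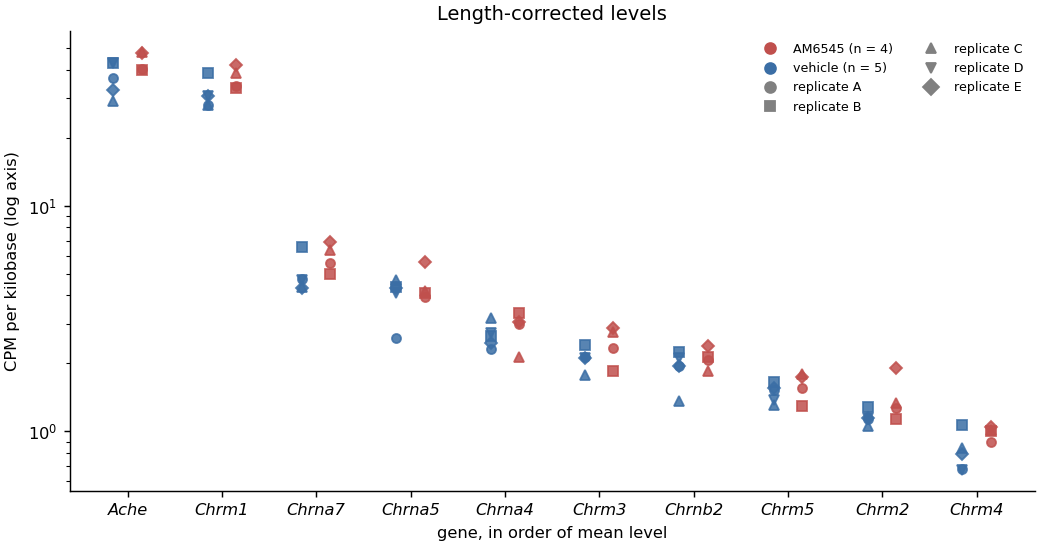
Level of each gene in CPM per kilobase of its longest protein-coding transcript (vertical log axis), with genes along the horizontal axis in order of their mean. Red points are AM6545 samples, blue points vehicle samples and shapes the replicate letters. Ache and Chrm1 sit above 27 in every sample and the other 8 genes below 7.

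For each of the 10 genes, the gene with the most similar pattern over the 9 samples was found among the 14511 other tested genes by Pearson's r of log2 CPM. It was Sun1 for Chrm1 (r = 0.985), Atp2b3 for Chrm3 (r = 0.989), Galnt16 for Chrna7 (r = 0.980) and Abhd16a for Ache (r = 0.986). It was 5330417C22Rik for Chrm2 (r = 0.972), Chst1 for Chrm4 (r = 0.975) and Pcdhb18 for Chrm5 (r = 0.972). For the other nicotinic genes it was Diaph2 for Chrna4 (r = 0.960), Bud13 for Chrna5 (r = 0.934) and Lrp10 for Chrnb2 (r = 0.973). Each is the highest of many values over 9 samples in 2 groups that share their libraries, and is given as a description with no test.

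The rest of the cholinergic system was followed in 4 lists of 54 further genes, of which 40 were tested. Of the 40, 21 had a higher and 19 a lower fitted level after AM6545, with a median log2 fold change of 0.01, and 0 reached an adjusted p of 0.05. At an unadjusted p of 0.05 there were 2 of the 40, among them Slc44a5, against 7.21% of all genes. The group ranges stood apart for 1 of the 40, Gna11, against 1.45% of all genes.

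The other nicotinic subunits were sparse. Of 12, only Chrna1, Chrna2 and Chrna3 passed the filter. The 9 under it were Chrna6, Chrna9, Chrna10, Chrnb1, Chrnb3, Chrnb4, Chrnd, Chrne and Chrng, and Chrnd had 0 counts in all 9 samples. Single samples held most of the counts of several. Chrna6, a subunit of dopamine neurons and visual pathways, had 101 counts in AM6545 E and 0 to 4 in each of the other 8 samples. Chrnb3, which assembles with it, had 45 in AM6545 E and 4 to 18 elsewhere. Chrna3 and Chrnb4, subunits of autonomic ganglia and the medial habenula, were highest in different samples: Chrna3 had 150 counts in AM6545 E and 81 in vehicle A, against 13 to 38 elsewhere, and Chrnb4 had 105 in vehicle A and 31 in AM6545 E, against 1 to 21 elsewhere. In AM6545 E the transcription factor gene Pou4f1, expressed in habenula and retina, had 14 counts, against 0 or 1 in each other sample. The habenula gene Tac2 was highest in vehicle A, at 3.23 CPM, and was at 1.99 CPM in AM6545 E, against 1.52 to 2.69 CPM in the other 7 samples. Gpr151, another habenula gene, was at 2.43 CPM in vehicle A and 3.81 CPM in AM6545 E, inside the 1.22 to 4.52 CPM of the other 7. Nwd2 and Calb2, also on the habenula list, were at 15.4 and 42.6 CPM in vehicle A and at 13.2 and 29.7 CPM in AM6545 E. In the other 7 samples they ran from 12.6 to 18.6 CPM and from 48.3 to 55.6 CPM. The 8 listed habenula genes summed to 74.8 CPM in vehicle A and to 58.3 CPM in AM6545 E, the lowest of the 9 samples. Calb2, which is also on the thalamus list, was the largest part of this sum in every sample. Summed without Calb2, the list was higher in vehicle A and AM6545 E than in any other sample. Whether other brain regions in the dissection have a part in these counts was not tested.

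**Figure D4:**
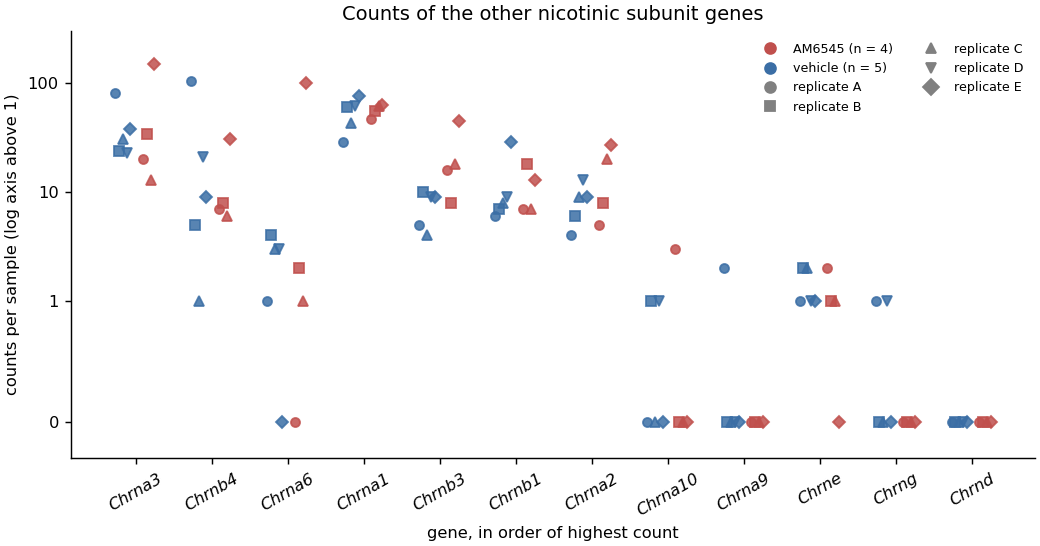
Counts of the 12 other nicotinic subunit genes in each sample (vertical axis, logarithmic above 1), with genes along the horizontal axis in order of their highest count. Red points are AM6545 samples, blue points vehicle samples and shapes the replicate letters. Chrna6 lies at 101 counts in AM6545 E and at 0 to 4 in every other sample.

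Genes that make and load acetylcholine were close to absent. Chat, the synthesising enzyme, and Slc18a3, the vesicular transporter, had 0 to 5 counts a sample, and the choline transporter gene Slc5a7 had 6 to 15. Chat, Slc18a3 and the choline transporter-like gene Slc44a3 were the 3 of this list under the filter. Of 9 markers of basal forebrain cholinergic neurons, 8 were under 1 CPM in all samples. The list summed to 3.73 to 6.16 CPM, most of it from the remaining gene, Ecel1, at 2.77 to 5.32 CPM. Among the 6 tested genes of synthesis, transport and breakdown, 3 were higher and 3 lower. Slc44a5, a choline transporter-like gene, was at 15.7, 10.8, 15.7 and 19.7 CPM in AM6545 A, B, C and E and at 12.6, 13.6, 10.8, 12.6 and 11.8 CPM in vehicle A to E. AM6545 A, C and E lay above every vehicle sample, while AM6545 B, at 10.76 CPM, was the lowest of all samples, just under vehicle C at 10.81 CPM. The log2 fold change of Slc44a5 was 0.33 (SE 0.15, edgeR quasi-likelihood test with Benjamini-Hochberg adjustment, adjusted p = 0.653). Bche, the other cholinesterase, had 46 to 82 counts a sample and a log2 fold change of -0.17 (95% interval -0.55 to 0.22).

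Among the 11 tested genes for receptor and esterase assembly, 4 were higher and 7 lower, while Colq and Musk were under the filter. Tmem35a, which encodes the nicotinic receptor chaperone NACHO, had a log2 fold change of -0.17 (SE 0.09, 95% interval -0.37 to 0.02), opposite in sign to that of its client Chrna7. All 4 AM6545 samples, at 67.2, 68.8, 70.4 and 76.6 CPM (A, B, C, E), lay below the vehicle mean of 79.8 CPM, and AM6545 E lay inside the vehicle range of 71.2 to 89.3 CPM. Neither Tmem35a nor Chrna7 reached an adjusted p of 0.05. Ric3, of the same assembly list, had a log2 fold change of -0.0003 (95% interval -0.21 to 0.21). In the muscarinic signalling list, 11 of 20 were higher and 9 lower. Gna11, a G protein alpha subunit of the Gq class, was at 166 to 180 CPM in the 4 AM6545 samples and at 153 to 165 CPM in the 5 vehicle samples. Its ranges stood apart, yet its log2 fold change was 0.10, with a 95% interval of -0.07 to 0.28.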

How the data were processed

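RNA of 9 synaptoneurosome samples was sequenced after SMARTer Ultra Low Input library preparation, per the labels' protocols. The submitters' processing notes list Salmon 1.3, DESeq2 1.30 and the builds GRCm39 and mm10, with no role or order. The authors deposited estimated counts per gene, not normalized between samples, as the values show, and these were rounded to whole numbers. Symbols and transcript lengths came from GENCODE M21, matched without version for 22201 of 22255 identifiers. Only 11 versions matched, so no gene coordinates are given other than those of RefSeq's promoters on GRCm38.p6.

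Genes were filtered with filterByExpr, libraries scaled by TMM, and the quasi-likelihood test of edgeR 4.0.16 in R 4.3.3 was run without a block, with Benjamini-Hochberg adjustment over all tested genes at 0.05. Intervals use the standard error from F. The alternatives were other scalings, filters, tools (limma 3.58.1, DESeq2 1.42.0), a length correction and samples left out. Each of the 36 pairs of libraries differed by more than sampling noise, with a chi-square of 10.03 to 89.98 per degree of freedom.

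The 10 genes and all lists were chosen with earlier results of these data known. Genes named outside the 10 are the most similar gene to each, list genes with an unadjusted p under 0.05, list genes under the filter, and list genes picked for their role. Gna11, Tmem35a, Ric3, Ecel1 and the habenula genes were picked after their values were seen. Of the list genes under that p, 1 is not reported here. Levels per length use the longest transcript, chosen after seeing that the median model of Ache is shorter than its coding sequence.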

Additional observations from a re-analysis of the deposited data

Results flagged for a closer look

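Far single values were looked for in 24 groups of values (12 genes in 2 groups), where chance alone gives about 1.2 such values, and 4 were found. The genes share their libraries, so the 4 are not independent. Chrm1 and Chrna7, both far in vehicle B, correlated at r = 0.947 over the 9 samples. Chrm1 in vehicle B was at 243 CPM, against 192 CPM in the next vehicle sample. Chrna7 in vehicle B was at 13.7 CPM, against 9.88 CPM in the next. Chrna5 in AM6545 E was at 13.8 CPM, against 10.3 CPM in the next AM6545 sample. Chrna5 in vehicle A was at 6.35 CPM, against 10.02 CPM in the next lowest vehicle sample.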

How the results depend on the processing

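Over 19 alternatives to the fit, the 190 fold changes of the 10 genes were all positive, from 0.02 to 0.41 on the log2 scale, and 0 passed the adjusted threshold (smallest adjusted p = 0.217, edgeR, limma or DESeq2). The number of the 10 under an unadjusted p of 0.05, which was 0, became 1 with DESeq2 size factors (Chrm1, 7.20% of all genes), 2 with DESeq2 (Chrm1 and Ache, 7.72%), 1 with limma-voom (Chrm1, 6.00%) and 1 with the length trend removed (Ache, 5.86%). With single samples left out it ran from 0 to 5, and the number whose ranges stood apart from 0 to 3. With AM6545 E and vehicle B both left out, chosen after seeing the data, both numbers were 3, against 17.1% of all genes at that p and 15.2% with ranges apart. The cause of these changes was not tested. In a paired fit with a replicate block on the letters, the number was 1 (Ache), against 5.23% of all genes. Deviations of same-lettered samples from their group means correlated at r = -0.02 for A, 0.04 for B, 0.34 for C and -0.02 for E. AM6545 C alone correlated best with its own letter. The labels do not say what the letters mean, and so few samples cannot exclude a pairing by letter. Counts per sample were lowest for Chrm4 (17 to 42) and Chrm5 (41 to 72).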
